A study of Mus musculus with 4 samples.

Results

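The guidance genes described here encode ligands and receptors of the ephrin, semaphorin, Slit and netrin systems, and were measured in fibroblasts prepared from C57BL/6 mouse embryos (MEFs). They were chosen by name as 40 gene symbols, out of 18193 genes that at least 1 probe set of the array names alone. Earlier results of these data were known when they were chosen. Of the 40, 39 have such a probe set, 95 probe sets in all, and Ephb2 has none. The cells were wild type (FAN +/+) or FAN -/-, which lack FAN, the product of Nsmaf, an adaptor that binds the TNF receptor. Untreated cells of either genotype stood 24 h in DMEM without serum; treated cells stood 8 h without serum and then 16 h with tumour necrosis factor (TNF, 50 ng/ml). Each of these 4 conditions gave 1 array, and the design asks how TNF acts on these cells and whether FAN matters for it. How many embryos or cultures stand behind an array, and which part of Nsmaf is missing, are not given in the sources used here.

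Guidance systems let cells attract or repel one another and were first studied in growing axons. Eph receptors are receptor tyrosine kinases that meet ephrins on the surface of neighbouring cells, and both cells then signal; ephrin-A proteins hang on a lipid anchor and ephrin-B proteins cross the membrane. Semaphorins act through plexins, and most secreted class 3 semaphorins need a neuropilin as co-receptor. Slits act through Robo receptors and netrin-1 through Dcc and Unc5 receptors. In fibroblasts and other mesenchymal cells the same molecules are known for effects on spreading, contact repulsion and migration.

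Values are log2 signals, and a value below 6.27, the median of all deposited values, counts as being at the floor, where no order was read. Differences below were taken after raising such values to 6.27. Array medians lay between 6.21 and 6.30. All 12 fibroblast markers were above the floor on all 4 arrays. Nsmaf had log2 values of 8.95 and 8.55 on the wild-type arrays and 7.91 and 7.48 on the knockout arrays, which goes with the sample titles; the genotype entry of 2 samples contradicts the titles and was not used. As no condition was repeated, a difference of 1 array against 1 has no test; it is called higher or lower, and those reaching 2-fold were counted. The words rose and fell stand for genes that passed limma (Benjamini-Hochberg adjusted p under 0.05 over 11817 genes) in a model that adds a genotype term and a TNF term, with 1 residual degree of freedom. Its residual is the gap between the TNF responses of the 2 genotypes, pooled with a variance estimated over all genes. That gap may be technical or may depend on the genotype, and no spread between cultures was measured. Genes with like responses in both genotypes thus pass more easily, and those with unlike responses less easily. A bulk signal also cannot tell fewer cells of a type from less RNA per cell.

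Of the 39 genes, 33 were above the floor on all 4 arrays. Epha3 was above it on 3 arrays and Efnb3 on 1, and Epha5, Ephb1, Sema4a and Robo2 were at the floor on all 4. The model took the 34 genes that exceeded the floor on 2 or more arrays, and 11 of them passed for TNF, for genotype or for both. The 4 log2 values of a gene are given below in the order untreated wild type, TNF-treated wild type, untreated knockout and TNF-treated knockout.

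**Figure D1:**
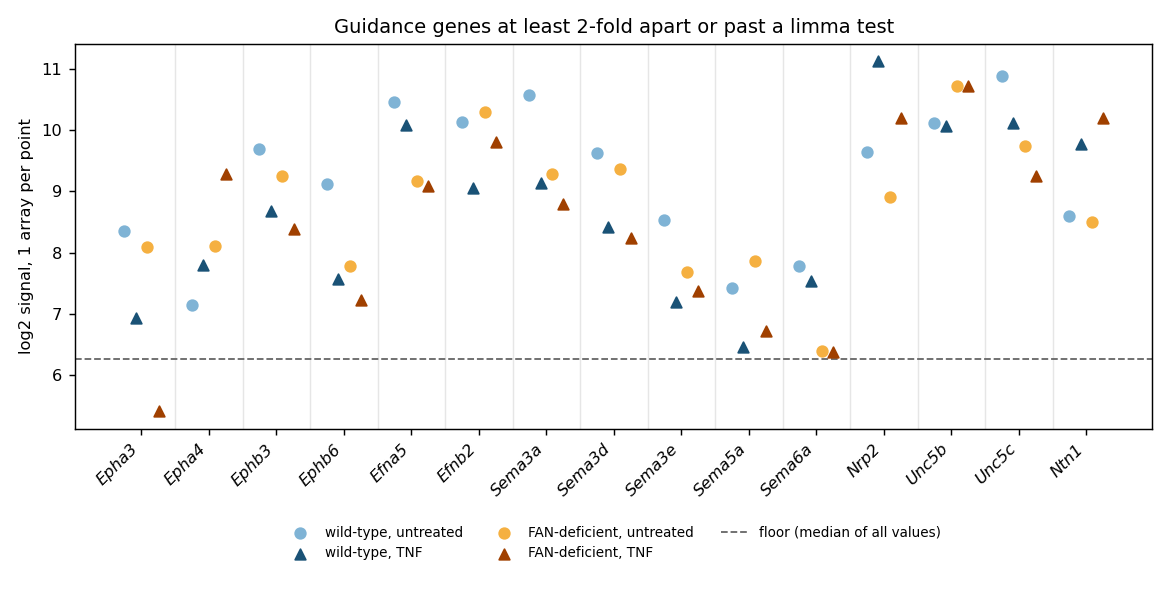
Log2 signal (y axis) of the 15 guidance genes (x axis) at least 2-fold apart in any of 4 comparisons or past a limma test; each point is 1 array, circles are untreated and triangles TNF-treated, blue is wild type and orange FAN-deficient, and the dashed line is the floor at 6.27. Both triangles of Nrp2 and of Ntn1 lie above both circles, and both triangles of Epha3, Sema3d, Ephb3 and Sema5a lie below both circles.

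With TNF, 2 guidance genes rose and 4 fell in the model. The neuropilin gene Nrp2 and the netrin gene Ntn1 rose, while the Eph receptor genes Epha3 and Ephb3 and the semaphorin genes Sema3d and Sema5a fell, and each did so by between 0.94 and 1.62 on the log2 scale. In all, 1.57% of the genes tested rose and 1.14% fell, against 5.88% and 11.8% of the 34 guidance genes. Because the genes were chosen with earlier results of these data known, these shares are no test of the set. Among 26 other guidance genes, described below, 3.85% rose and 3.85% fell. The median over the guidance genes was -0.20, against -0.02 over all genes tested. Of 5 smooth muscle and pericyte markers, Cnn1 (-1.03 log2, limma adjusted p = 0.0205) and Myh11 (-0.76, 0.0432) fell with TNF too. Cspg4 (-0.83, 0.0697), Rgs5 (-0.47, 0.185) and Acta2 (0.04, 0.788), the brightest of the 5, did not pass. The median over the 5 was -0.76. Of 12 fibroblast markers 1 fell, Thy1 (-0.82 log2, limma adjusted p = 0.0498), and 0 rose. The part of these shifts in the falls of the guidance genes was not tested. Centring the arrays on their medians raised the calls to 3 higher and 9 lower; over all genes it turned 186 higher and 135 lower (57.9% higher) into 405 and 518 (43.9% higher).

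Nrp2 encodes neuropilin-2, a co-receptor for class 3 semaphorins and for VEGF-C. Its log2 values were 9.64, 11.12, 8.90 and 10.19. Both TNF arrays were thus above both untreated arrays, by 2.79-fold for wild type and by 2.45-fold for knockout, and the model gave a rise of 1.38 ± 0.11 log2 (SE, limma adjusted p = 0.016). Of its 3 further probe sets, 2 were bright and gave log2 differences of 1.05 and 1.19 in wild-type and 1.09 and 0.82 in knockout cells; the third was above the floor on 1 array only. Ntn1 encodes netrin-1, the secreted ligand of Unc5 receptors and Dcc. It stood at 8.60, 9.78, 8.50 and 10.19, so that the untreated arrays were close together and both TNF arrays higher. The responses were 2.26-fold and 3.23-fold, and the rise was 1.43 ± 0.16 log2 (SE, limma adjusted p = 0.0302).

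Epha3 encodes a receptor for ephrin-A ligands and had the largest fall among the 34 genes tested. It gave 8.35, 6.94 and 8.09 and went below the floor, at 5.41, on the TNF-treated knockout array. The fold lower with TNF was 2.67 for wild type and at least 3.54 for knockout, and the fall was -1.62 ± 0.14 log2 (SE, limma adjusted p = 0.0201). This call depends on the floor: with floors at the 30th and 70th percentiles its adjusted p was 0.0821 and 0.147, in a range of 0.000256 to 0.445 over all alternatives. Other probe sets, 2 of them, were above the floor in untreated cells and lay lower with TNF in both genotypes. Their log2 differences were -0.89 and -0.47 in wild-type and -0.32 and -0.51 in knockout cells. These are bounds, as their TNF values were at the floor.

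Sema3d encodes a secreted class 3 semaphorin, and its responses in the 2 genotypes were close together. From 9.62 untreated it stood at 8.42 with TNF in wild-type cells, and from 9.36 at 8.24 in knockout cells. It was 2.30-fold and 2.18-fold lower, a fall of -1.16 ± 0.11 log2 (SE, limma adjusted p = 0.0222). Ephb3, which encodes a receptor for ephrin-B ligands, had 9.69, 8.68, 9.25 and 8.38 and fell by 0.94 ± 0.11 log2 (SE, limma adjusted p = 0.035). Sema5a encodes a membrane semaphorin with thrombospondin repeats. It gave 7.42, 6.46, 7.87 and 6.72 and fell by 1.06 ± 0.11 log2 (SE, limma adjusted p = 0.0265). Both of its TNF values lay close to the floor.

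The sequence before the start of these genes is shown because they passed the model for TNF, which favours like responses in both genotypes. RefSeq's promoter table (GRCm38.p6) holds a window for 5 of the 6 genes, and Ntn1 is the other. Printed are the 250 bases upstream of the annotated start, 5′ to 3′ on the strand of the gene, and the capitals mark GC boxes (GGGCGG on either strand), a motif bound by Sp1-type factors.
Nrp2, chr1:62703067-62703316, plus strand: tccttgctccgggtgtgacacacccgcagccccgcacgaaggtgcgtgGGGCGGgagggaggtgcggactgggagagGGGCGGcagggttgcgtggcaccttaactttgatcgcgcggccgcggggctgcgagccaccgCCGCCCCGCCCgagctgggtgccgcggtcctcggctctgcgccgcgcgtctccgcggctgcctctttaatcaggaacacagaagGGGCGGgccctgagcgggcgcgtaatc
Epha3, chr16:63864176-63864425, minus strand: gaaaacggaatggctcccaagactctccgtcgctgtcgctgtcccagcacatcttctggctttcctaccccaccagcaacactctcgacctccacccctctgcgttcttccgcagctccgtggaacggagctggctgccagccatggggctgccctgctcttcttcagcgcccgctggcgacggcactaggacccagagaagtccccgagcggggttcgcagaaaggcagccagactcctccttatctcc
Sema3d, chr5:12382916-12383165, plus strand: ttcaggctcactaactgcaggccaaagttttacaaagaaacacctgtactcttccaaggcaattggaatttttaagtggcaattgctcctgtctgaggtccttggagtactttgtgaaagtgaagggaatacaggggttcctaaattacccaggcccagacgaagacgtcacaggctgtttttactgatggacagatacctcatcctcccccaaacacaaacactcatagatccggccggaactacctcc
Ephb3, chr16:21204545-21204794, plus strand: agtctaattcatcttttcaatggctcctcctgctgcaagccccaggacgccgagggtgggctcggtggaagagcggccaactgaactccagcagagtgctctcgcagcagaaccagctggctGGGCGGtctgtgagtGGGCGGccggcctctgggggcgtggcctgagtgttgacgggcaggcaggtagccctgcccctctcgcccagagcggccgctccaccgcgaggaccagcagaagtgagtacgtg
Sema5a, chr15:32244563-32244812, plus strand: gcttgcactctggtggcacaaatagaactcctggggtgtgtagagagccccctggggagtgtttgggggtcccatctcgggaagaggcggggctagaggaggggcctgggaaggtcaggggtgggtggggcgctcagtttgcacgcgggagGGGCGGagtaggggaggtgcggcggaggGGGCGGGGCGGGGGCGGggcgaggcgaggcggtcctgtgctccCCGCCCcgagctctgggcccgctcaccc
GC boxes were present in the windows of Nrp2 (5), Ephb3 (2) and Sema5a (5), some of them overlapping one another, and not in those of Epha3 and Sema3d. Among all 32851 windows of this length 32.7% hold a GC box, against 69.0% of the 42 windows of 34 guidance genes. The windows of the guidance genes had a median GC content of 64.6%, against 52.4% over all windows. The Nrp2 window had 72.4% and the Sema3d window 46.8%. The NF-kB consensus, searched on both strands, was in none of the 5 windows; 3.90% of all windows hold it, and 3 guidance windows do, those of Ephb1, Ephb2 and 1 of Sema4a. The AP-1 site TGANTCA (6.75% of all windows) and the interferon response element, searched as GAAA and GAAA with 2 bases between (2.98%), were in no guidance window. A match or its lack describes these letters in this stretch only.

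In wild-type cells by themselves, 2 guidance genes of 34 above the floor reached 2-fold upward with TNF and 7 reached it downward. The shares over all genes were 2.26% upward and 1.98% downward. The 7 were Ephb6 (2.91-fold), Sema3a (2.69-fold), Epha3 (2.67-fold), Sema3e (2.52-fold), Sema3d (2.30-fold), Efnb2 (2.11-fold) and Ephb3 (2.01-fold). In knockout cells 3 were at least 2-fold higher and 3 lower of 35 above the floor, where the shares over all genes were 1.38% and 1.10%. The higher ones were Ntn1, Nrp2 and Epha4, and the lower ones Epha3, Sema5a (2.22-fold) and Sema3d. At any size, 22 of 34 genes (64.7%) lay lower with TNF in both genotypes and 8 (23.5%) higher, against 35.7% and 31.5% of all genes measured in both.

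**Figure D2:**
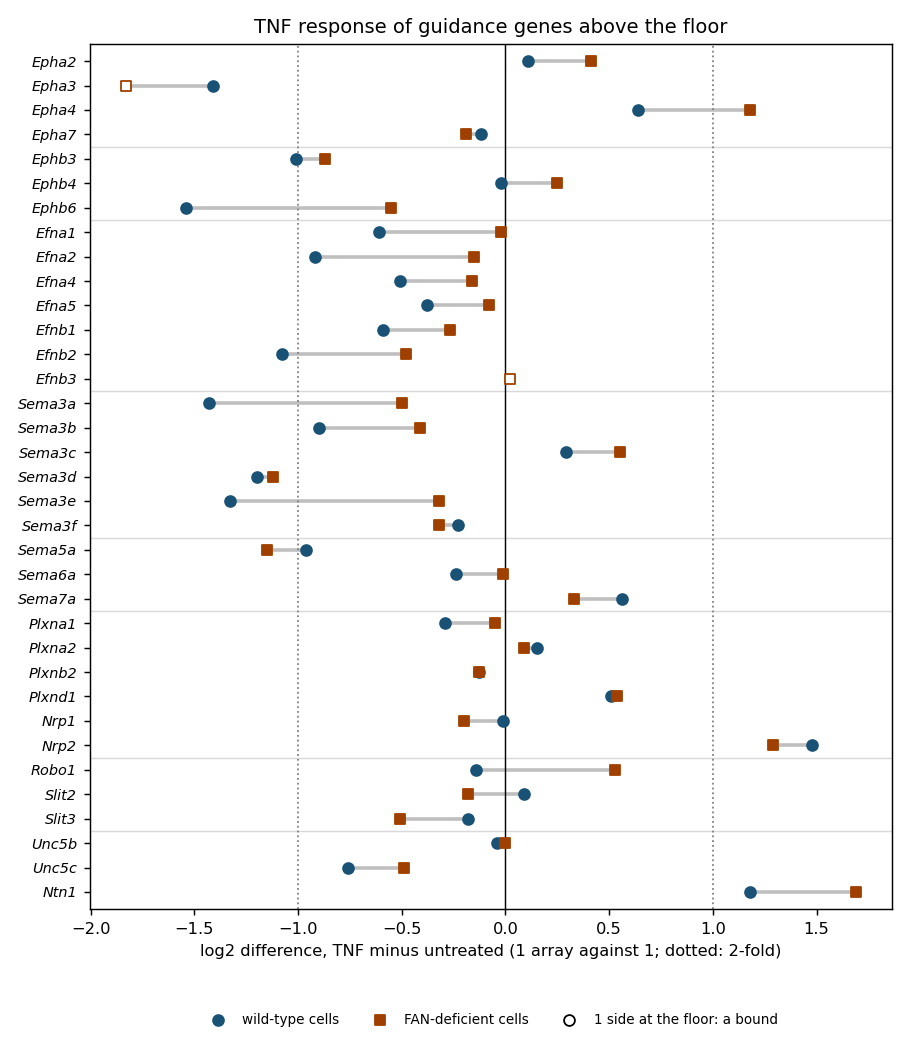
Log2 difference between the TNF-treated and the untreated array (x axis) for the 35 guidance genes above the floor (y axis, grouped by role), with wild-type cells as blue circles, FAN-deficient cells as brown squares and open symbols for bounds; dotted lines mark 2-fold. Nrp2 and Ntn1 lie beyond 2-fold to the right in both genotypes, Epha3 and Sema3d beyond 2-fold to the left in both, and Ephb3, Ephb6, Sema3a, Sema3e and Efnb2 beyond it in wild type alone.

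Among ligands of Eph receptors, the 6 ephrin genes above the floor on all arrays lay lower with TNF in both genotypes by their brightest probe set. None passed the model, and 35.7% of all genes measured in both genotypes lay lower in both. The ephrin genes gave the following values. In wild-type cells their log2 differences ran from -0.38 for Efna5 to -1.08 for Efnb2, with a median of -0.60. In knockout cells they ran from -0.02 for Efna1, whose other probe set gave 0.24, to -0.48 for Efnb2. Efnb2, which encodes the ephrin-B2 ligand of EphB4, stood at 10.14, 9.06, 10.29 and 9.81 (limma TNF -0.78 ± 0.17 log2, SE, adjusted p = 0.114). Its 3 further probe sets gave -0.58 to -1.16 in wild-type and -0.33 to -0.48 in knockout cells. Efnb1 had 9.41, 8.82, 9.69 and 9.42, and its 3 probe sets gave wild-type differences of -0.51 to -0.60. Efna1 had 7.97 in untreated wild-type cells and between 7.11 and 7.36 on the other 3 arrays. The same held for Efna2, at 7.67 against 6.75 to 6.93. Efna4 had 8.87, 8.36, 9.07 and 8.91.

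The Eph receptors went separate ways. Epha4, a receptor that binds both ephrin classes, was higher with TNF in both genotypes, at 7.15, 7.80, 8.10 and 9.28, and did not pass the model for TNF (0.91 ± 0.17 log2, SE, limma adjusted p = 0.0809). Ephb6, whose protein has an inactive kinase domain, had 9.12 in untreated wild-type cells and 7.57, 7.78 and 7.22 on the other arrays. Its TNF response ran downward by 2.91-fold in wild type, against 1.47-fold in the knockout, and the additive model counts such a gap as error (-1.05 ± 0.26 log2, SE, limma adjusted p = 0.139). Epha2, a receptor for ephrin-A1, stayed between 9.63 and 10.03 and the ephrin-B2 receptor gene Ephb4 between 8.80 and 9.15. Epha7, another ephrin-A receptor gene, lay between 8.42 and 8.67 by its brightest probe set, and 2 dimmer ones were lower with TNF by -0.35 and -0.60 log2 in wild-type and -0.55 and -0.76 in knockout cells.

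Of the 6 secreted class 3 semaphorin genes, 5 lay lower with TNF in both genotypes and Sema3c lay higher. Among all genes measured in both, 35.7% lay lower in both and 31.5% higher. Sema3a, whose product collapses growth cones through neuropilin-1, had 10.57 in untreated wild-type cells and 9.14, 9.29 and 8.79 elsewhere. Sema3e, the ligand of plexin-D1, had 8.54 there and 7.20, 7.69 and 7.38 elsewhere. Both were thus highest on the untreated wild-type array. With TNF, Sema3a was lower by 2.69-fold for wild type and 1.41-fold for knockout, and Sema3e by 2.52-fold and 1.24-fold. Neither passed the model (limma adjusted p = 0.142 and 0.211). All 3 probe sets of Sema3a and all 4 of Sema3e lay lower with TNF in wild-type cells. Sema3b went from 9.16 to 8.26 and from 8.21 to 7.80. Sema3c, with a high signal on every array, stood at 12.28, 12.56, 11.74 and 12.29 (limma TNF 0.42 ± 0.10 log2, SE, adjusted p = 0.125).

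Semaphorin receptors other than Nrp2 differed little between arrays. The plexin genes Plxna1, Plxna2 and Plxnb2 lay between 10.00 and 10.41, 8.20 and 8.43, and 11.71 and 11.85. Plxnd1, the Sema3e receptor, was higher with TNF by 0.51 and 0.54 log2 (limma 0.53 ± 0.11, SE, adjusted p = 0.109). Nrp1 lay between 11.66 and 12.09. Of the membrane semaphorins, Sema7a, whose protein has a lipid anchor, was higher with TNF by 0.56 and 0.33 log2, and Sema6a differed by -0.24 and -0.01. Slit2 lay between 11.97 and 12.38 and Slit3 between 9.31 and 10.08. Their receptor gene Robo1 had 9.51, 9.37, 8.77 and 9.30.

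Between the genotypes, 2 guidance genes were higher and 4 lower in knockout cells in the model. The receptor genes Epha4 and Unc5b were higher, and Sema6a, Efna5, Unc5c and Nrp2 were lower, by 0.64 to 1.27 log2. Over all genes tested 2.94% were higher and 3.67% lower, against 5.88% and 11.8% of the 34 guidance genes. Here too the choice of genes makes these shares no test of the set. Among 26 other guidance genes, 15.4% were higher and 0.00% lower. The median was -0.22 over the guidance genes and -0.01 over all. Centring the arrays gave 2 higher and 8 lower. Over all genes it turned 347 higher and 434 lower (44.4% higher) into 532 and 980 (35.2% higher).

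Sema6a encodes a transmembrane semaphorin that binds plexins of class A. Its signal was 7.78 and 7.54 on the wild-type arrays and 6.40 and 6.38, just above the floor, on the knockout arrays. By this brightest probe set the knockout was 2.61-fold lower in untreated and 2.23-fold lower in treated cells (limma -1.27 ± 0.11 log2, SE, adjusted p = 0.0141). Another Sema6a probe set, above the floor on all 4 arrays, gave smaller log2 differences of -0.73 untreated and -0.50 with TNF. A further one gave -0.78 and -0.25, which are bounds, as its knockout values were at the floor. Neither of these probe sets reached 2-fold in either treatment. Efna5, which encodes an ephrin-A ligand of EphA receptors, stood at 10.46 and 10.08 in wild-type against 9.17 and 9.09 in knockout cells. The difference was -1.14 ± 0.12 log2 (SE, limma adjusted p = 0.0191). A second, dimmer probe set of Efna5 was at the floor in both knockout conditions.

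The Unc5 receptors of netrin-1 differed in opposite directions. Unc5c had 10.88 and 10.12 in wild-type and 9.74 and 9.25 in knockout cells (limma -1.01 ± 0.11 log2, SE, adjusted p = 0.0211), and its second probe set gave -1.08 untreated and -0.88 with TNF. Unc5b had 10.11 and 10.06 in wild-type and 10.72 and 10.72 in knockout cells (0.64 ± 0.09 log2, SE, limma adjusted p = 0.0333). In neither gene did the genotypes overlap, but both were picked by the model on the same arrays, so this is no further support. Epha4 was the most raised guidance gene in knockout cells, 1.93-fold without TNF and 2.80-fold with it (1.22 ± 0.17 log2, SE, limma adjusted p = 0.0302). With the floor at the 70th percentile its adjusted p was 0.129, in a range of 0.00302 to 0.388 over the alternatives. Nrp2 was lower in knockout cells in either treatment, by 1.67-fold and 1.90-fold (-0.83 ± 0.11 log2, SE, limma adjusted p = 0.0261), besides its rise with TNF.

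**Figure D3:**
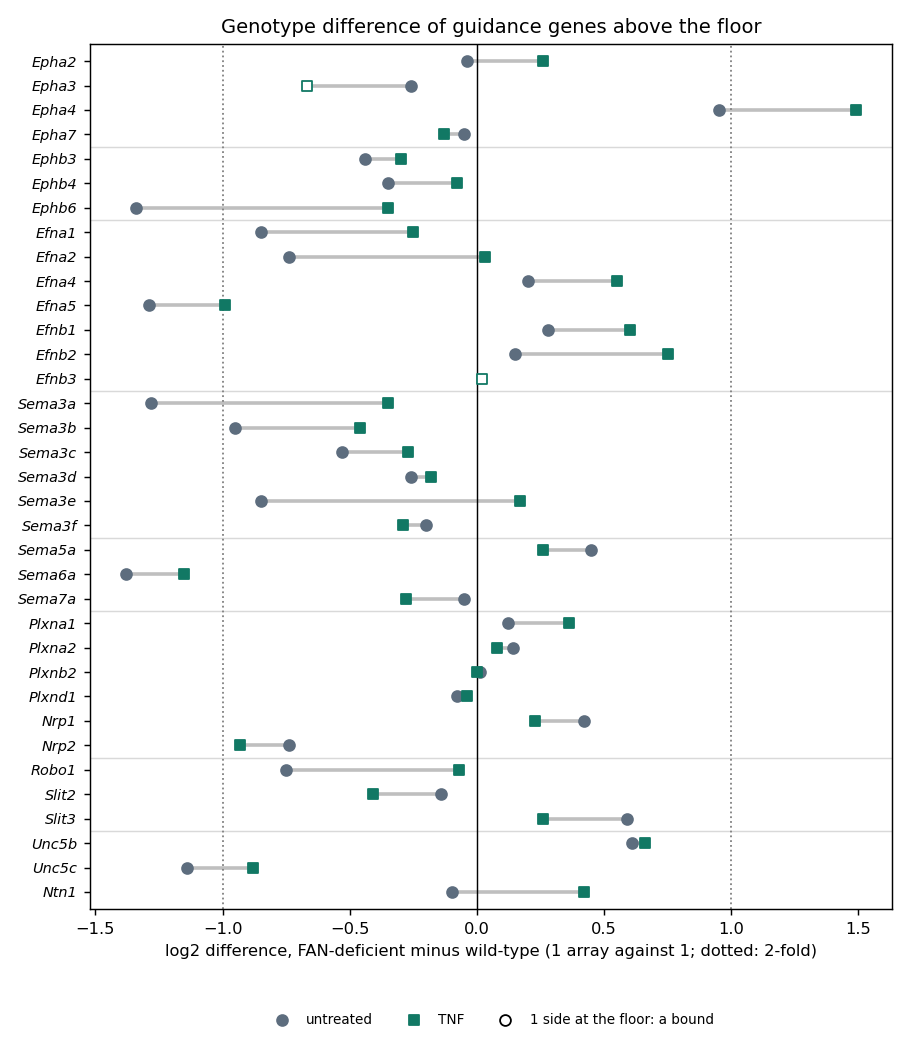
Log2 difference between the FAN-deficient and the wild-type array (x axis) for the 35 guidance genes above the floor (y axis, grouped by role), with untreated cells as grey circles, TNF-treated cells as green squares and open symbols for bounds; dotted lines mark 2-fold. Sema6a lies beyond 2-fold to the left in both treatments, Epha4 to the right with TNF, and Ephb6, Sema3a, Efna5 and Unc5c to the left without TNF alone.

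Without TNF, 0 of 34 guidance genes above the floor were at least 2-fold higher in knockout cells and 5 were lower: Sema6a, Ephb6 (2.53-fold), Efna5 (2.44-fold), Sema3a (2.43-fold) and Unc5c (2.21-fold). Over all genes the shares were 1.48% and 2.96%. With TNF, 1 of 35 was higher (Epha4) and 1 lower (Sema6a), against 1.58% and 2.70% of all genes. Ephb6 and Sema3a stood 1.27-fold and 1.28-fold lower in knockout cells with TNF. For Ephb6, Sema3a, Sema3b, Sema3e and Efna1 the TNF comparison in wild type and the genotype comparison in untreated cells share the untreated wild-type array, the highest of the 4. Across the class 3 semaphorins all 6 genes lay lower in untreated knockout than in untreated wild-type cells, by -0.20 for Sema3f to -1.28 for Sema3a. Of all genes, 55.0% lay lower in this comparison, which uses the same untreated wild-type array.

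Sema3f, a ligand with a preference for neuropilin-2, depends on its probe set. The brightest one, whose suffix _x_at marks probes that may match other transcripts, gave 10.95, 10.72, 10.75 and 10.43. The next one gave 11.65, 10.97, 9.94 and 9.26, and the third 10.09, 9.18, 8.75 and 8.15. With _x_at probe sets left out, a choice made after the data were seen, Sema3f was lower in knockout cells (-1.71 ± 0.09 log2, SE, limma adjusted p = 0.00727) and with TNF (-0.68 ± 0.09 log2, SE, limma adjusted p = 0.0449). By the brightest probe set it passed neither test (limma adjusted p = 0.2 and 0.227).

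The difference of the TNF responses, knockout minus wild type, reached 2-fold for Sema3e alone (2.03-fold, log2 1.02); over all genes 0.794% reached it upward and 0.818% downward. Ephb6 (0.99) and Sema3a (0.93) came next, and Efna2 stood at 0.77 and Robo1 at 0.67. Of the 35 guidance genes 68.6% had a positive difference, close to the 59.9% over all genes, with medians of 0.24 and 0.05. The 6 ephrin genes above the floor on all arrays ranged from 0.29 to 0.77, and Efnb3, above it on 1 array by a narrow margin, gave 0.02. No degree of freedom is left to test these differences. Sema3e stayed under 2-fold with quantile normalization (0.94), without a floor (0.96), with averaged probe sets (0.86) and with the floor at the 70th percentile (0.69).

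Further probe sets were compared for the larger differences. In 22 cases a guidance gene was at least 2-fold apart in 1 of the 4 comparisons, and for 19 of them another probe set was above the floor. These cases gave 36 values of further probe sets, where a probe set counts once in each comparison. All 36 values had the same sign and 13 were themselves at least 2-fold apart. The like share over all genes was not computed. Probe sets of a gene share the RNA and the array, so they are no replicates. Smaller differences could turn with the probe set: for TNF in wild-type cells Slit2 gave 0.09, 0.05 and -0.35, and Unc5b -0.04 and 0.26.

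**Figure D4:**
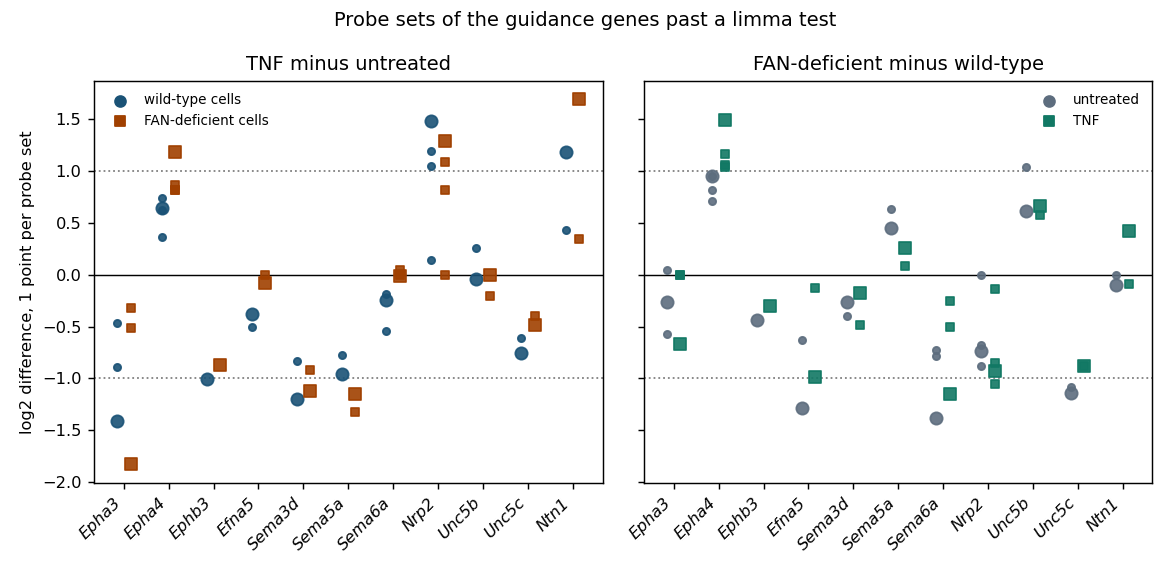
Log2 differences (y axis) of every probe set above the floor on at least 1 array for the 11 guidance genes past a limma test (x axis); the left panel is TNF minus untreated, the right panel FAN-deficient minus wild type, and the large symbol is the brightest probe set, which stands for the gene. Probe sets spread by size within a gene, among them those of Epha3, Ntn1, Nrp2, Epha4, Sema5a and Sema6a. None of Nrp2 lies below 0 on the left or above 0 on the right.

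Related genes outside the 40 were counted the same way. Of 38 other guidance ligands and receptors, 26 were tested, and 1 rose and 1 fell with TNF (3.85% each). The shares over all genes tested were 1.57% and 1.14%. Flrt2, which encodes an adhesion molecule that binds Unc5 receptors, rose by 0.95 ± 0.10 log2 (SE, limma adjusted p = 0.027), from 10.70 to 11.51 and from 11.42 to 12.50. Its relative Flrt1 fell by 1.21 ± 0.13 log2 (SE, limma adjusted p = 0.0275). In knockout cells 4 of the 26 (15.4%) were higher and 0 lower, against 2.94% and 3.67% of all genes tested. The 4 were Ntn4 (1.14), the ephrin gene Efna3 (0.95), Flrt2 (0.85) and Dcbld2 (0.60), which encodes a neuropilin-like membrane protein. Flrt3, which encodes a further Unc5 partner, did not pass (limma genotype -1.37 ± 0.30 log2, SE, adjusted p = 0.0789). It had 8.87, 8.77, 6.90 and 8.00, and was 3.92-fold lower in untreated and 1.71-fold lower in TNF-treated knockout cells, a difference of responses of 1.20 log2. At an unadjusted limma p under 0.05 for genotype, 4 of the 26 were higher and 4 lower. Over all 11817 genes tested, 1325 were higher and 1574 lower.

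Of 47 genes of guidance signalling 40 were tested. With TNF 1 of them rose (2.50%) and 0 fell, against 1.57% and 1.14% of all genes tested. At an unadjusted limma p under 0.05, 4 were higher and 6 lower, against 969 and 1250 of all 11817 genes. For genotype, Dpysl3 (0.94), of the CRMP family of semaphorin mediators, and Limk2 (0.67), a cofilin kinase, were higher. Srgap3 (-1.38), a GTPase-activating protein of Slit-Robo signalling, and Farp2 (-0.77), an exchange factor downstream of semaphorin 3A, were lower. Under TNF, Srgap1 and Crmp1 were 2.2-fold and 2.08-fold higher in knockout cells and did not pass (limma genotype adjusted p = 0.0911 and 0.0741).

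Markers of other cells were read beside these values. Of 7 neuronal markers, Dcx, Elavl4, Gap43 and Snap25 were at the floor on all arrays, Syt1 was above it on all arrays (limma genotype -0.05 log2, adjusted p = 0.825), and Stmn2 (1.35 ± 0.10 log2, SE, limma adjusted p = 0.0104) and Tubb3 (1.24 ± 0.22 log2, SE, limma adjusted p = 0.0483) were higher in knockout cells. The summed neuronal signal was 1622 and 2122 in wild-type and 3508 and 5569 in knockout cells, most of it from Stmn2, and Epha4 stood in the same order. Of 9 endothelial markers Pecam1, Cdh5, Tie1, Emcn and Cldn5 were at the floor on all arrays. Kdr, Tek, Esam and Egfl7 were above it on all 4, and the sum of all 9 stayed between 829 and 878. Of 7 macrophage markers Ptprc, Cd68, Adgre1, Aif1 and Itgam were at the floor on all arrays. Csf1r and Lyz2 were above it on all 4, and were 2.46-fold and 3.28-fold higher in untreated knockout than in untreated wild-type cells. Under TNF, Csf1r was 1.02-fold higher and Lyz2 1.12-fold lower in knockout cells. Neither passed for genotype (limma adjusted p = 0.289 and 0.371). The sums of the 7 were 496 and 731 in wild-type and 1213 and 693 in knockout cells. The fibroblast sum, mostly of collagens, Fn1 and Vim, was 116995 and 116225 in wild-type and 102595 and 87539 in knockout cells. In the model 4 of the 12 fibroblast markers (33.3%) were lower in the knockout and 0 higher. Over all genes tested, 3.67% were lower and 2.94% higher. The 4 were Lum (-4.97 log2), Dcn (-1.64), Pdgfra (-1.62) and Twist1 (-1.04). Lum was 15.7-fold lower in untreated and 62.7-fold lower in TNF-treated knockout cells. Of 7 epithelial markers 3 were above the floor on all arrays (sums 880 to 988), of 5 skeletal muscle markers 1 (257 to 363), of 5 smooth muscle and pericyte markers 5 (15138 to 18172, mostly Acta2) and of 4 Schwann and glial markers on the array 1 (317 to 337). The skeletal muscle marker above the floor, Des, was higher in knockout cells (0.76 ± 0.11 log2, SE, limma adjusted p = 0.0342). Myf5, Myh3, Myod1 and Myog were at the floor on all arrays. The part of these shifts in the genotype differences of the guidance genes was not tested.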

How the data were processed

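Each of the 4 conditions was hybridised to 1 Affymetrix Mouse Genome 430 2.0 array, and groups follow the sample titles. The authors deposited 1 log2 value per probe set, a scale judged from the range of 2.79 to 14.40. MAS5 is named in the submitters' processing notes, and its version, the scaling between arrays and any filter are not given in the sources used here, so their effect on low values is unknown. The 4 arrays have nearly equal medians and maxima, and whether the values are MAS5 signals could not be settled from them, so what a value or fold near the floor means is uncertain. Probe sets were named by the platform annotation; of 45101, 34945 name 1 gene, and the brightest stands for a gene. Signals under the 50th percentile (log2 6.27) were raised to it. Log2 differences of 1 array against 1 carry no test; an additive model was fitted with limma 3.58.1 (intensity trend, prior degrees of freedom 3.52) to 11817 genes and tested on simulated data. The number of arrays limits the precision. Alternatives were other floors, scalings, probe set rules, filters and models. Named are all 40 guidance genes (full values for those at least 2-fold apart or past the test), and genes of 2 further lists at least 2-fold apart or past the test; members and lists were chosen with earlier results of these data known. The values of 1 signalling gene that passed the test for TNF are not reported here.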

Additional observations from a re-analysis of the deposited data

How the results depend on the processing

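No direction of a guidance gene at least 2-fold apart or past a limma test turned under any alternative run. Of 158 alternative values of 23 differences of 1 array against 1, 151 stayed within 1.5-fold of the reported one and 7 moved; of 117 alternative limma values of 12 calls, 90 kept the call and 27 lost it. Of the 27, 24 came from testing all 18193 genes without a filter and from leaving the other factor out of the model, where limma called 0 guidance genes for TNF or for genotype, in either direction. At an unadjusted p under 0.05 the unfiltered fit had 3 guidance genes higher and 6 lower for TNF and 2 and 6 for genotype. Over all 18193 genes it had 863 and 823, and 1117 and 1063. After adjustment this unfiltered fit called 0 of all genes for TNF and 0 for genotype. The fit without the other factor had 4 and 4, and 2 and 3. Over all genes this last fit called 0 for TNF (450 and 434 unadjusted). For genotype it called 4 higher and 6 lower (794 and 871 unadjusted). The other 3 lost calls were Epha3 with TNF and Epha4 between genotypes at other floors, and the floor at the 70th percentile left 1 guidance gene higher in the knockout in place of 2. Centring the arrays raised the lower calls from 4 to 9 for TNF and from 4 to 8 for genotype, and over all genes to 405 and 518 for TNF and to 532 and 980 for genotype, from 347 and 434. Over all genes the lower TNF calls were 225 with the floor at the 70th percentile and 212 without a floor. At least 2-fold in TNF-treated knockout cells, averaging all probe sets left 1 higher and 1 lower and the 70th percentile floor 1 lower, in place of 3 and 3. Over all genes averaging gave 125 higher and 102 lower and that floor 94 lower, in place of 165 and 131. Between genotypes under TNF, the 1 lower gene became 2 with the 30th percentile floor, centring, no floor (log2 of signal + 16) or without _x_at probe sets, and 0 with the 70th percentile floor. In the same order, the lower count over all genes became 370, 337, 322, 324 and 217, from 323. For the difference of responses, the 1 gene upward became 2 with the 70th percentile floor (Sema3e not among them) and with centring. It became 0 with quantile normalization, no floor or averaged probe sets, and the 0 downward became 1 with the 30th percentile floor. In the same order, the upward count over all genes became 68, 116, 88, 77 and 69, from 97, and the downward count became 113, from 100. At that 70th percentile floor, the counts over all genes were 154 lower with TNF in wild type, 103 higher and 219 lower in the untreated knockout, and 112 higher in the knockout under TNF, from 235, 177, 353 and 189. The causes were not tested. No paired analysis was possible because each condition has 1 array and the labels give no replicate numbers; leaving out an array leaves no residual degree of freedom. Signal near the floor limits Epha3, Sema5a and Sema6a.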
